A study of Mus musculus with 9 samples.

Results

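Transcripts of 39 peroxisomal genes were followed in mouse livers with and without hepatocellular carcinoma (HCC). The genes were chosen by symbol from the 55401 genes of the count table, and each of the 39 symbols was found. They comprised 13 peroxins (Pex genes), which build the organelle and import its proteins, 21 enzymes of the peroxisome and 5 genes named for membrane proteins. Whole livers of 9 female mice were sequenced, 3 in each of 3 groups, with mice aged 6 weeks at the start. Healthy livers came from wild-type mice that received neither oncogene nor virus. HCC was induced with plasmids for myristoylated AKT and NRAS-V12 (RAS/AKT), which the sleeping beauty transposase inserts into the genome. They were given by hydrodynamic tail vein injection, in which a fast, large volume drives DNA into liver cells. At 1 week after the oncogenes, the mice received a blank adeno-associated virus of serotype 8 (AAV8) in untreated HCC, or the same vector with miR-22 in miR-22-treated HCC. Livers were taken 4 weeks after the virus, at 5 weeks after the oncogenes. The HCC livers differed from the healthy livers in the injection and the virus as well as in the tumors, so these cannot be told apart in comparisons with healthy livers. The oncogenes reach only a share of hepatocytes and the tissue held tumor and surrounding liver together. The paper reports that tumors took up most of the untreated liver sections and that miR-22 lowered liver weight relative to body weight. The HCC groups thus cannot be taken as tissue of like tumor content, and the part of this difference in the results was not tested. Strain labels conflict between C57BL/6 and FVB/N, and the plasmid list that all samples share also names a β-catenin plasmid that is not part of the RAS/AKT model.

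Peroxisomes are organelles in which very long-chain and branched-chain fatty acids are shortened by β-oxidation and α-oxidation, bile acid precursors are trimmed, glyoxylate is detoxified and the hydrogen peroxide made by oxidases is broken down by catalase. They hold no DNA, and their enzymes are made in the cytosol and imported in folded form. Most carry a short signal at the C terminus, peroxisomal targeting signal 1 (PTS1), which the receptor PEX5 binds, and a few carry an N-terminal signal, PTS2, which PEX7 binds. Hepatocytes are rich in peroxisomes, and in rodents many of the genes are targets of the nuclear receptor PPARα.

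The coding ends were searched for the letters of both import signals, and a match is a description, not a measured route. The PTS1 consensus (serine, alanine or cysteine, then lysine, arginine or histidine, then leucine or methionine) was read from the last 3 codons before the stop codon of the canonical transcript (GENCODE vM39, GRCm39). It was met by 9 of 21 enzymes (42.9%), by 0 of 13 Pex genes, by 0 of 5 membrane protein genes and by 111 of 21581 protein-coding canonical transcripts (0.514%). The last codons of 8 of these enzymes are shown with the targeting codons in capitals, since they separate the enzymes into classes that the expression values are later set against. Hsd17b4 is the other enzyme that met the consensus.
Ehhadh (chr16:21580036-21606563, minus strand): gcaggaccccatagcAGCAAACTGtga
Ech1 (chr7:28524036-28531674, plus strand): aaaagcatcaccttcTCCAAGCTCtga
Nudt7 (chr8:114860297-114882092, plus strand): tggagatattctttaAGCAAGTTGtga
Scp2 (chr4:107901025-108002195, minus strand): cttcagccgggcaaaGCTAAGCTGtga
Crat (chr2:30289300-30306340, minus strand): cagaaccaccccaggGCCAAGCTCtga
Crot (chr5:8985926-9047393, minus strand): cagctgatgaacaccGCTCATCTTtag
Nudt19 (chr7:35245860-35255729, minus strand): aataagagatgtactGCCCACCTGtaa
Dao (chr5:114141740-114163743, plus strand): tccaggttgcctcccTCCCACCTCtga

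A further 9 enzymes had neither the strict PTS1 consensus nor a PTS2 stretch. Their ends are variants of the signal, with an asparagine, glutamine or proline codon among the last 3, or isoleucine at the end in Hao1. Catalase is known to be imported through such a weaker PTS1.
Cat (chr2:103284194-103316185, minus strand): gctgcgaagggaaaaGCTAACCTGtaa
Hacl1 (chr14:31320681-31363243, minus strand): cactggctcacccgtTCTAACATGtga
Agxt (chr1:93062962-93073143, plus strand): cagcattgtcctaagAACAAGTTGtga
Hao1 (chr2:134339279-134396289, minus strand): aatcctttggctgttTCCAAGATCtga
Acox2 (chr14:14210395-14244262, plus strand): atgcaaagctggaaaCCCAAGCTGtga
Amacr (chr15:10981827-10996712, plus strand): agtgataagctaaaaGCCAATCTCtga

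A PTS2 stretch was found within the first 40 codons of 3 enzymes (14.3%), compared with 28 of 21581 transcripts (0.13%). It began at codon 3 of Acaa1a and Acaa1b and at codon 9 of Phyh. The 27 bases of each stretch are printed whole in capitals. The coding sequences of Acaa1a and Acaa1b were identical at 1231 of 1275 bases (96.5%), so reads can be shared between them and the split of counts within this pair is uncertain.
Acaa1a (chr9:119168742-119182956, plus strand): CGGCTGCAGGTAGTGCTGGGCCACCTG
Acaa1b (chr9:118977091-118986161, minus strand): CGGCTGCAGGTAGTGCTGGGTCACCTG
Phyh (chr2:4923653-4950446, plus strand): CGGCTGCAGGTCCTTCTGGGACACCTC

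The mature miRNA of the therapy, mmu-miR-22-3p, is encoded at chr11:75463772-75463793 (plus strand, GRCm38.p6, RefSeq), and its seed, bases 2 to 8, is in capitals. A match to this seed, GGCAGCT, was present after the stop codon of 4 of 39 peroxisomal transcripts (10.3%) and of 2920 of 20799 protein-coding canonical transcripts with such sequence (14%). The matches were in Pex6, Amacr, Nudt7 and Pxmp4 and are shown with the match in capitals. None of these genes was called lower with miR-22 treatment (values below), and Nudt19, the single peroxisomal gene called lower, had no match in this sequence. Whether miR-22 acts on any of these transcripts was not tested, and whole-liver levels also move with the cell types present.
mmu-miR-22-3p: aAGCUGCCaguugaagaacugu
Pex6, from base 137 after the stop codon: gcagggctGGCAGCTaggggctt
Amacr, from base 224 after the stop codon: taacttgtGGCAGCTttctgcct
Nudt7, from base 2017 after the stop codon: ggcattggGGCAGCTgaactcta
Pxmp4, from base 66 after the stop codon: accttccaGGCAGCTgctcaggg

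Total counts per liver were between 16664659 and 23908392, and 15717 genes passed the filter on low counts. Of the peroxisomal genes, 38 passed and Dao, the D-amino acid oxidase, had 0 counts in each of the 9 livers. Levels are given as CPM, counts scaled to a common library total after TMM normalization. Livers are listed in the order of their replicate numbers (1, 2 and 3 for healthy livers, 2, 3 and 4 for both HCC groups), and n is 3 livers per group throughout. The transcripts of the oncogenes matched the labels of healthy and HCC livers. Healthy livers had 103 to 109 CPM of Akt1, against 1170 to 1673 CPM without miR-22 and 672 to 1104 CPM with it. Nras rose less, from 26.8 to 29.6 CPM when healthy to 63.3 to 77.3 CPM without miR-22 and 53.3 to 55.3 CPM with it. These genes do not check the miR-22 label. Albumin took 8.66% to 8.97% of healthy counts, 5.11% to 5.73% of untreated HCC counts and 6.16% to 6.86% of treated counts. TMM factors were 0.866 to 0.872, 1.12 to 1.22 and 0.942 to 1.03 in the same order. The summed level of 9 hepatocyte markers was 133700 to 138600 CPM when healthy, 56610 to 70560 CPM without miR-22 and 83820 to 104400 CPM with it. Of these markers, 8 of 9 fell in HCC (18.1% of all genes) and 5 of 9 rose with miR-22 treatment (8.32% of all genes). Alb made up most of this sum, at 101400 ± 1600 CPM (mean ± SD, n = 3) in healthy livers. It was at 45900 ± 4670 CPM in untreated HCC and 67210 ± 6630 CPM in miR-22-treated HCC, and was not called with treatment. In the same order, summed cholangiocyte markers were 48.8 to 60.6, 3370 to 6302 and 1588 to 2739 CPM, and stellate cell markers 270 to 302, 900.4 to 1044 and 686 to 828 CPM. Single genes carried these sums, since Spp1 alone was at 4620 ± 1420 CPM (mean ± SD, n = 3) in untreated HCC while Krt19 was not called in any comparison. Of the stellate cell markers, the collagens Col1a1, Col1a2 and Col3a1 rose in untreated HCC, whereas Lrat and Dcn fell in it and rose with miR-22 treatment. Neutrophil markers were 1.76 to 4.59, 17.9 to 23.0 and 17.0 to 25.7 CPM, with Ly6g and Elane at 0 in healthy livers. Macrophage markers (363 to 458, 335 to 396 and 420.3 to 449.5 CPM), T cell markers (5.71 to 6.79, 7.06 to 9.09 and 6.57 to 9.13 CPM) and B cell markers (6.26 to 11.4, 7.36 to 10.8 and 9.18 to 9.76 CPM) had group ranges that overlapped or lay close together. Endothelial markers were 366 to 457, 231 to 292 and 306 to 391 CPM, and cell division genes 10.6 to 16.8, 179 to 229 and 109 to 162 CPM. These cell type values move with the groups compared, and their part in the peroxisomal results was not tested. In whole liver, fewer hepatocytes and less RNA per hepatocyte cannot be told apart.

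The first question was whether peroxisomal transcripts changed with HCC. A gene was called when its fold change passed 1.5 with an adjusted p under 0.05 (edgeR quasi-likelihood F test, adjusted over all 15717 genes). By this rule 26 of 38 fell in untreated HCC compared with healthy livers, 1 rose, and 11 were not called. Over all genes tested, 18.1% were called lower and 22.7% higher. The median log2 fold change of the 38 was -0.85 and that of all genes was 0.01. In 34 of 38, each untreated HCC liver was lower than each healthy liver, which held for 31.4% of all genes. The sole riser was Nudt19, and the uncalled genes were Pex5, Pex11a, Pex13, Pex14, Pex19, Pex26, Acox3, Scp2, Crat, Crot and Pxmp4.

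The second question was what miR-22 treatment did to them. Compared with untreated HCC, 12 of 38 rose with miR-22 treatment and 1, Nudt19 again, fell, while 8.32% of all genes were called higher and 5.47% lower. The median log2 fold change was 0.52, compared with 0.002 over all genes. The risers were Pex11a, Ech1, Eci2, Phyh, Hacl1, Cat, Hao1, Nudt7, Nudt12, Abcd2, Abcd3 and Pxmp2. Many other changes lay just under the fold threshold, and at an adjusted p under 0.05 alone 23 were higher, compared with 13.6% of all genes. In 22 of 38, each treated liver was above each untreated HCC liver (19.7% of all genes). The count rested on single livers, with 6 called higher without untreated HCC replicate 3 and 20 without untreated HCC replicate 4, where 6.32% and 9.18% of all genes were called higher. Untreated HCC replicate 3 had the lowest level of its group in 29 of 38 genes, and treated replicate 4 in 23 of 38.

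The third question was what difference from healthy livers was left. In miR-22-treated HCC, 11 of 38 were called lower than in healthy livers and 0 higher, compared with 7.05% and 16.9% of all genes, and at an adjusted p under 0.05 alone 26 were lower (15.1% of all genes). The 11 were Pex10, Pex11g, Ehhadh, Cat, Agxt, Hacl1, Amacr, Nudt7, Abcd2, Abcd3 and Pxmp2. Without treated replicate 4, 6 were called lower, with 5.46% of all genes. The treated mean lay between the means of the other groups in 35 of 38 genes and outside them in Pex11a, Pex26 and Scp2. This was not counted over all genes, so no share stands beside it. The 3 comparisons share livers, so their values are given side by side and are not independent of each other. The plot of log2 fold changes shows the peroxins close together and the enzymes widely spread.

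**Figure D1:**
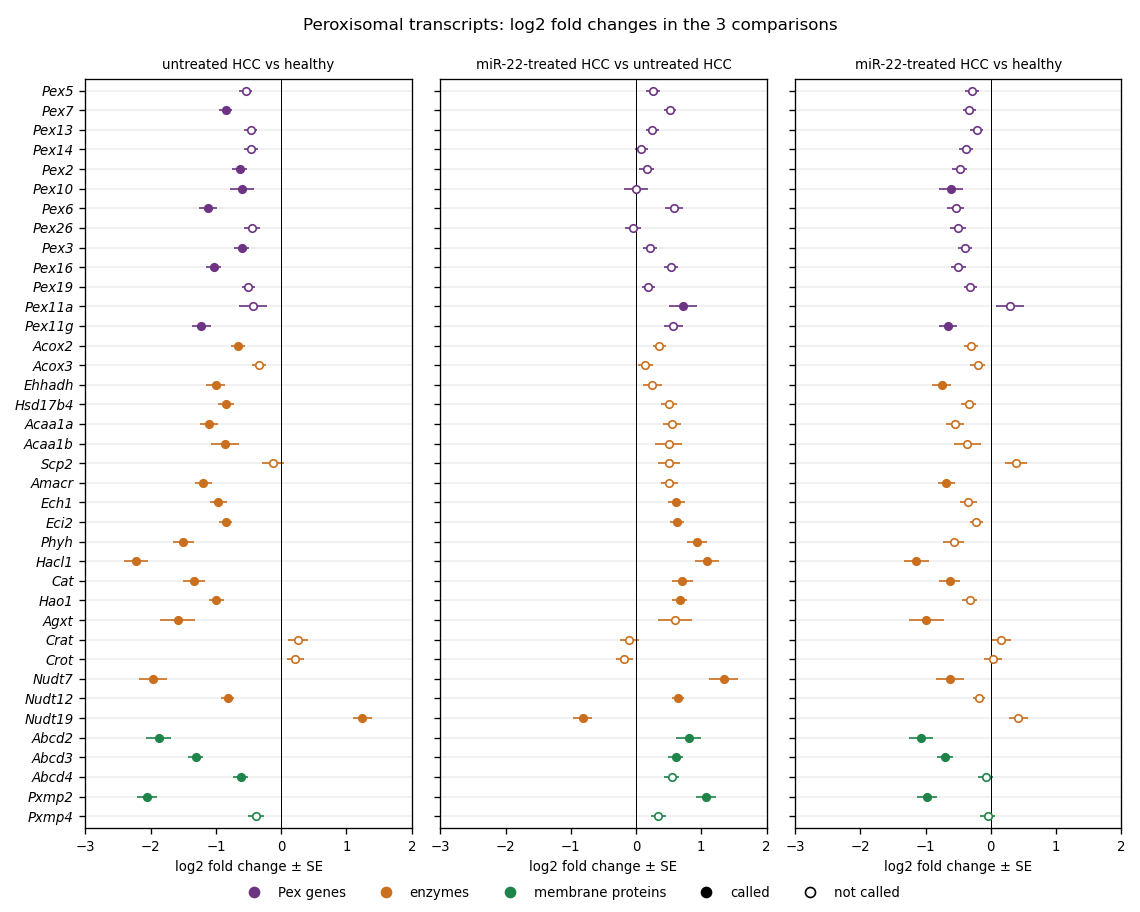
Log2 fold change with its standard error (x axis) for the 38 tested peroxisomal genes (y axis, ordered by role) in each of the 3 comparisons, with filled points for called genes. All 13 Pex genes lie between -1.23 and -0.43 in untreated HCC compared with healthy livers, whereas the 20 enzymes run from -2.23 to 1.24.

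Among the import receptors, Pex7 fell in untreated HCC and Pex5 was not called. Pex5, which carries PTS1 enzymes to the membrane, was at 148, 147 and 143 CPM in healthy livers, 101, 85.1 and 114 CPM in untreated HCC and 122, 119.9 and 117 CPM in miR-22-treated HCC. The untreated livers were all below the healthy livers and the treated livers were all between them. Its log2 fold change was -0.55 ± 0.10 (SE, adjusted p = 0.000576) in untreated HCC compared with healthy livers and 0.26 ± 0.10 (SE, adjusted p = 0.087) with miR-22 treatment, with a fold of 1.46 in the first. Without untreated HCC replicate 4 the first value was -0.65 (adjusted p = 0.000168) and was called. Pex7, which carries PTS2 enzymes, was at 66.01, 76.9 and 74.2 CPM in healthy livers, 40.5, 37.3 and 42.7 CPM in untreated HCC and 55.9, 64.03 and 53.1 CPM in miR-22-treated HCC. It fell 1.80-fold in untreated HCC, with a log2 fold change of -0.85 ± 0.10 (SE, adjusted p = 1.15e-05), and the 3 groups did not overlap. With miR-22 treatment the value was 0.52 ± 0.10 (SE, adjusted p = 0.00288), a fold of 1.44, and compared with healthy livers it was -0.33 (adjusted p = 0.0195).

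Neither gene of the docking complex was called in any comparison. Pex13 was at 70.2 ± 2.44 CPM (mean ± SD, n = 3) in healthy livers, 50.7 ± 5.92 CPM in untreated HCC and 60.4 ± 5.65 CPM in miR-22-treated HCC, with a log2 fold change of -0.47 ± 0.10 (SE, adjusted p = 0.00161) in untreated HCC compared with healthy livers and 0.25 ± 0.10 (SE, adjusted p = 0.0919) with miR-22 treatment. Pex14 was at 50.8 ± 4.29 CPM (mean ± SD, n = 3) in healthy livers, 36.8 ± 3.66 CPM in untreated HCC and 38.98 ± 3.02 CPM in miR-22-treated HCC, with values of -0.46 ± 0.10 (SE, adjusted p = 0.00195) and 0.08 ± 0.10 (SE, adjusted p = 0.616). Both were lower in each HCC liver than in each healthy liver, and untreated and treated livers overlapped. Pex13 shares 103 exonic bases with Pus10, and Pex14 shares 129 with Gm17029, on opposite strands, and the libraries did not keep strand.

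Both RING ligase genes, whose products ubiquitinate the receptors so that they can leave the membrane, were called lower in untreated HCC by a narrow margin. Pex2 was at 66.4, 64.5 and 77.2 CPM in healthy livers, 40.9, 44.02 and 49.01 CPM in untreated HCC and 50.8, 55.8 and 43.3 CPM in miR-22-treated HCC, a fall of 1.55-fold with a log2 fold change of -0.64 ± 0.11 (SE, adjusted p = 0.000369). Pex10, the lowest of the peroxins, was at 9.62, 7.75 and 9.39 CPM in healthy livers, 4.92, 5.46 and 7.17 CPM in untreated HCC and 6.52, 5.42 and 5.66 CPM in miR-22-treated HCC, from 85 to 192 counts per liver. Its log2 fold change was -0.60 ± 0.18 (SE, adjusted p = 0.0122) in untreated HCC compared with healthy livers and -4e-04 ± 0.18 (SE, adjusted p = 0.999) with miR-22 treatment. Treated livers thus sat at the level of untreated HCC, and were called lower than healthy livers at -0.60 ± 0.18 (SE, adjusted p = 0.0215). For Pex2 the value with miR-22 treatment was 0.16 ± 0.11 (SE, adjusted p = 0.333), and treated and untreated livers overlapped for both genes. The Pex2 call in HCC was lost without healthy replicate 3 at -0.56 (adjusted p = 0.00254) and without untreated HCC replicate 2 at -0.57 (adjusted p = 0.00316). For Pex10 it was lost without healthy replicate 1 at -0.56 (adjusted p = 0.0402), healthy replicate 3 at -0.58 (adjusted p = 0.0414), untreated HCC replicate 2 at -0.49 (adjusted p = 0.058) or untreated HCC replicate 3 at -0.55 (adjusted p = 0.0457). The second Pex10 call, in treated compared with healthy livers, was lost without healthy replicate 1 at -0.56 (adjusted p = 0.0618), healthy replicate 3 at -0.58 (adjusted p = 0.0646), treated replicate 3 at -0.55 (adjusted p = 0.0634) or treated replicate 4 at -0.58 (adjusted p = 0.0586).

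The receptor export pair moved unequally. Pex6, an AAA ATPase that pulls spent receptors out of the membrane, was at 137, 127 and 126 CPM in healthy livers, 49.8, 53.6 and 75.8 CPM in untreated HCC and 91.5, 92.6 and 84.4 CPM in miR-22-treated HCC. Each untreated liver was below each liver of the other groups, and it fell 2.17-fold with a log2 fold change of -1.12 ± 0.13 (SE, adjusted p = 1.58e-05). With miR-22 treatment the value was 0.58 ± 0.13 (SE, adjusted p = 0.00834), a fold of 1.497 just under the threshold. It was called without untreated HCC replicate 4 at 0.79 (adjusted p = 0.000217) and without treated replicate 4 at 0.62 (adjusted p = 0.00928). Pex26, which anchors that ATPase to the membrane, was at 36.5, 32.3 and 39.998 CPM in healthy livers, 25.6, 24.6 and 29.5 CPM in untreated HCC and 26.1, 22.3 and 28.6 CPM in miR-22-treated HCC. Its values were -0.45 ± 0.12 (SE, adjusted p = 0.00658) in untreated HCC compared with healthy livers, -0.05 ± 0.12 (SE, adjusted p = 0.809) with miR-22 treatment and -0.50 ± 0.12 (SE, adjusted p = 0.00661) in treated compared with healthy livers, none of them called. Both HCC groups lay below the healthy livers and overlapped each other.

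Of the membrane assembly genes, which insert peroxisomal membrane proteins, Pex16 and Pex3 fell in untreated HCC and Pex19 was not called. Pex16 was at 88.5, 75.9 and 85.5 CPM in healthy livers, 37.8, 36.99 and 47.1 CPM in untreated HCC and 57.02, 65.1 and 55.1 CPM in miR-22-treated HCC, and the 3 groups did not overlap. It fell 2.05-fold, with a log2 fold change of -1.03 ± 0.11 (SE, adjusted p = 6.45e-06), and was 0.54 ± 0.11 (SE, adjusted p = 0.0048) with miR-22 treatment. Among the single livers left out, the latter was called without untreated HCC replicate 4 at 0.66 (adjusted p = 0.00133) or treated replicate 4 at 0.59 (adjusted p = 0.0043). Pex3 was at 31.7, 31.8 and 31.7 CPM in healthy livers, 21.1, 19.7 and 21.7 CPM in untreated HCC and 24.8, 27.2 and 20.6 CPM in miR-22-treated HCC, the tightest healthy spread of the peroxins, with a log2 fold change of -0.61 ± 0.11 (SE, adjusted p = 0.000419) and, without untreated HCC replicate 3, of -0.56 (adjusted p = 0.00292), which was not called. Pex3 shares 280 exonic bases with Adat2 on the other strand. Pex19, the chaperone of the route, was at 120.2 ± 5.27 CPM (mean ± SD, n = 3) in healthy livers, 84.7 ± 9.13 CPM in untreated HCC and 96.4 ± 7.97 CPM in miR-22-treated HCC. Its log2 fold change was -0.51 ± 0.10 (SE, adjusted p = 0.000807), and -0.59 (adjusted p = 0.000419) without untreated HCC replicate 4, which was called. With miR-22 treatment neither Pex3 at 0.22 (adjusted p = 0.18) nor Pex19 at 0.19 (adjusted p = 0.197) was called.

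The PEX11 genes, whose products elongate and divide peroxisomes, differed from each other. Pex11a was at 82.7, 84.2 and 72.2 CPM in healthy livers, 61.1, 45.6 and 70.8 CPM in untreated HCC and 61.9, 109 and 121 CPM in miR-22-treated HCC. Treated replicates 3 and 4 were above every healthy liver, while treated replicate 2 lay among the untreated livers. It rose 1.65-fold with miR-22 treatment, the single peroxin called, with a log2 fold change of 0.72 ± 0.21 (SE, adjusted p = 0.0273). It was not called in untreated HCC compared with healthy livers at -0.43 ± 0.21 (SE, adjusted p = 0.104) or in treated compared with healthy livers at 0.29 ± 0.21 (SE, adjusted p = 0.307). The call was lost without untreated HCC replicate 2 at 0.74 (adjusted p = 0.0723), untreated HCC replicate 3 at 0.56 (adjusted p = 0.12), treated replicate 3 at 0.63 (adjusted p = 0.106) or treated replicate 4 at 0.53 (adjusted p = 0.0863). Pex11g was at 40.99, 34.6 and 36.4 CPM in healthy livers, 15.04, 13.7 and 19.1 CPM in untreated HCC and 23.7, 27.4 and 20.1 CPM in miR-22-treated HCC, with no overlap between groups. It had the largest fall of the peroxins, 2.34-fold, with a log2 fold change of -1.23 ± 0.15 (SE, adjusted p = 1.40e-05), and was 0.57 ± 0.15 (SE, adjusted p = 0.014) with miR-22 treatment. It was called higher with treatment without untreated HCC replicate 4 at 0.72 (adjusted p = 0.00418) or treated replicate 4 at 0.68 (adjusted p = 0.00517). Treated livers remained called below healthy livers at -0.65 ± 0.14 (SE, adjusted p = 0.00352), but not without treated replicate 4, at -0.55 (adjusted p = 0.0146). On the other strand Pex11g shares 1396 exonic bases, 48.1% of its exons, with Gm44775, which had 90 counts in all livers together, and 230 with Arhgef18, which had 7371 against 4269 of Pex11g. Without strand these reads cannot be told apart.

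**Figure D2:**
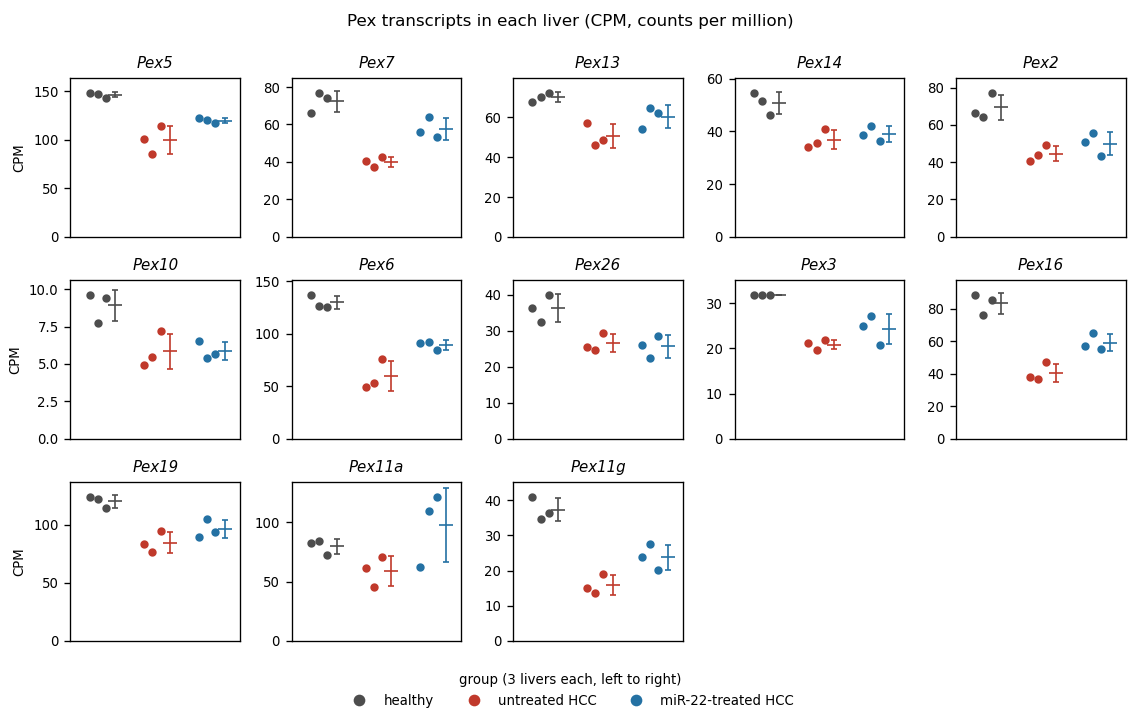
Level of each of the 13 Pex genes (y axis, CPM after TMM normalization, from 0) in each liver, with mean and SD of 3 livers beside the points. The untreated HCC livers lie below the healthy livers in each of the 13 panels, and Pex11a is the gene with the widest spread in miR-22-treated HCC, from 61.9 to 121 CPM.

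Of the 10 β-oxidation genes, 8 fell in untreated HCC (18.1% of all genes) and 2 rose with miR-22 treatment, which for so few genes is little beyond the 8.32% of all genes. Acox2, the oxidase of bile acid precursors, was at 201 ± 11.8 CPM (mean ± SD, n = 3) in healthy livers, 127 ± 14.4 CPM in untreated HCC and 163 ± 13.2 CPM in miR-22-treated HCC. It fell 1.58-fold, with a log2 fold change of -0.66 ± 0.11 (SE, adjusted p = 0.000174) and, without untreated HCC replicate 3, of -0.57 (adjusted p = 0.00094), which was not called. With miR-22 treatment the value was 0.36 ± 0.11 (SE, adjusted p = 0.0283), under the fold threshold. Acox3, an oxidase of branched-chain substrates, was at 42.2 ± 3.88 CPM (mean ± SD, n = 3) in healthy livers, 33.3 ± 4.03 CPM in untreated HCC and 36.8 ± 3.51 CPM in miR-22-treated HCC and was not called in any comparison, with values of -0.34 (adjusted p = 0.0206) in untreated HCC compared with healthy livers and 0.14 (adjusted p = 0.4) with miR-22 treatment.

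The bifunctional enzymes, which hydrate and dehydrogenate the chain, differed in what was left after treatment. Ehhadh, the L-bifunctional enzyme, was at 456, 454 and 438 CPM in healthy livers, 249, 173 and 249.8 CPM in untreated HCC and 240.1, 254 and 305 CPM in miR-22-treated HCC. It fell 2.01-fold in untreated HCC, at -1.0042 ± 0.14 (SE, adjusted p = 7.09e-05), and treated and untreated livers overlapped, with a value of 0.25 ± 0.14 (SE, adjusted p = 0.235). Treated livers were called below healthy livers at -0.75 ± 0.14 (SE, adjusted p = 0.00146). Hsd17b4, the D-bifunctional enzyme, was at 513, 528 and 515 CPM in healthy livers, 308, 236 and 323 CPM in untreated HCC and 402, 431 and 396 CPM in miR-22-treated HCC, without overlap between groups. It fell 1.79-fold, at -0.84 ± 0.12 (SE, adjusted p = 6.96e-05), and was 0.50 ± 0.12 (SE, adjusted p = 0.0103) with miR-22 treatment. That fold of 1.42 was called without untreated HCC replicate 4 at 0.59 (adjusted p = 0.00591). The difference between treated and healthy livers, -0.34 ± 0.12 (SE, adjusted p = 0.0419), was not called.

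The thiolases, which cut the chain in the last step, both fell in untreated HCC. On the other strand they share 172 exonic bases (Acaa1a, with Myd88) and 224 (Acaa1b, with Dlec1). Acaa1a was at 330.3, 313 and 296 CPM in healthy livers, 134, 118 and 183 CPM in untreated HCC and 203, 217 and 220.2 CPM in miR-22-treated HCC, a fall of 2.15-fold at -1.11 ± 0.14 (SE, adjusted p = 2.50e-05). The treated livers lay between the other groups without overlap, at 0.56 ± 0.14 (SE, adjusted p = 0.0129) compared with untreated HCC and -0.55 ± 0.14 (SE, adjusted p = 0.0082) compared with healthy livers. Neither was called, but the first was called without untreated HCC replicate 4 at 0.76 (adjusted p = 0.000518) or treated replicate 2 at 0.59 (adjusted p = 0.0261), and the second without healthy replicate 3 at -0.61 (adjusted p = 0.0169). Acaa1b was at 985, 929 and 864 CPM in healthy livers, 547, 347 and 636 CPM in untreated HCC and 563, 707 and 893 CPM in miR-22-treated HCC. It fell 1.82-fold at -0.86 ± 0.21 (SE, adjusted p = 0.0035), and the treated livers spread across both other groups. Their value was 0.50 ± 0.21 (SE, adjusted p = 0.101) compared with untreated HCC and, without untreated HCC replicate 4, 0.69 (adjusted p = 0.035), which was called. Scp2, which encodes a sterol carrier and a thiolase of branched-chain substrates, went another way, at 2056, 1958 and 2010.3 CPM in healthy livers, 2109.6, 1436 and 1992 CPM in untreated HCC and 2138, 3012 and 2736 CPM in miR-22-treated HCC. It was not called in untreated HCC compared with healthy livers, at -0.12 ± 0.17 (SE, adjusted p = 0.558), and its treated livers were each above every other liver. The values with treatment were 0.51 ± 0.17 (SE, adjusted p = 0.0439) compared with untreated HCC and 0.39 ± 0.17 (SE, adjusted p = 0.0896) compared with healthy livers, below the fold threshold, and the first was called without treated replicate 2 at 0.64 (adjusted p = 0.0268).

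The racemase and the isomerases, which feed branched and unsaturated substrates into β-oxidation, fell in untreated HCC together. Amacr, which turns over the α-methyl branch of bile acid precursors, was at 160.0, 157 and 160.2 CPM in healthy livers, 67.4, 58.3 and 82.7 CPM in untreated HCC and 102, 112 and 83.1 CPM in miR-22-treated HCC, a fall of 2.29-fold at -1.19 ± 0.13 (SE, adjusted p = 9.21e-06). Treated livers were all above untreated livers, at 0.51 ± 0.13 (SE, adjusted p = 0.0153), a fold of 1.43. This was called without untreated HCC replicate 4 at 0.66 (adjusted p = 0.00352) or treated replicate 4 at 0.63 (adjusted p = 0.00389). They were called below healthy livers at -0.68 ± 0.13 (SE, adjusted p = 0.00174), though not without treated replicate 4, at -0.57 (adjusted p = 0.00663). Ech1, a dienoyl-CoA isomerase, was at 254, 246 and 239 CPM in healthy livers, 130.0, 101 and 148 CPM in untreated HCC and 177, 201 and 204 CPM in miR-22-treated HCC. It fell 1.95-fold at -0.96 ± 0.13 (SE, adjusted p = 3.51e-05) and rose 1.54-fold with miR-22 treatment at 0.62 ± 0.13 (SE, adjusted p = 0.00449), and the 3 groups were apart. Eci2, an enoyl-CoA isomerase, was at 223, 225 and 231 CPM in healthy livers, 121, 117 and 138 CPM in untreated HCC and 171, 212 and 199.8 CPM in miR-22-treated HCC, and the groups were apart. Its values were -0.85 ± 0.10 (SE, adjusted p = 1.86e-05) in untreated HCC and 0.63 ± 0.10 (SE, adjusted p = 0.00135) with miR-22 treatment, a fall and a rise of 1.81-fold and 1.55-fold. The rises rested on single livers, since Ech1 was 0.48 (adjusted p = 0.0147) without untreated HCC replicate 3 and 0.58 (adjusted p = 0.00975) without treated replicate 4. Likewise Eci2 was 0.58 (adjusted p = 0.00896) without untreated HCC replicate 3 and 0.56 (adjusted p = 0.00907) without treated replicate 3, none of these past the fold threshold.

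Both enzymes of α-oxidation, which removes a single carbon from phytanic acid, fell in untreated HCC and rose with miR-22 treatment. Phyh, the phytanoyl-CoA hydroxylase, was at 1093, 1179.8 and 1155 CPM in healthy livers, 415, 307 and 487 CPM in untreated HCC and 756, 871 and 682 CPM in miR-22-treated HCC. The groups stood apart, with a fall of 2.83-fold at -1.50 ± 0.16 (SE, adjusted p = 5.97e-06) and a rise of 1.91-fold at 0.93 ± 0.16 (SE, adjusted p = 0.00159). Treated compared with healthy livers, at -0.57 ± 0.16 (SE, adjusted p = 0.0136), was under the fold threshold and was called without healthy replicate 1 at -0.62 (adjusted p = 0.0243) or treated replicate 3 at -0.67 (adjusted p = 0.0134). Hacl1, the lyase of the next step, was at 252, 262 and 271 CPM in healthy livers, 43.2, 49.9 and 74.6 CPM in untreated HCC and 147, 110.4 and 99.4 CPM in miR-22-treated HCC, the largest fall of the 38 genes at 4.68-fold, with a log2 fold change of -2.23 ± 0.19 (SE, adjusted p = 1.04e-06). It rose 2.12-fold with miR-22 treatment at 1.09 ± 0.19 (SE, adjusted p = 0.00164), and even so the treated livers were called 2.20-fold below the healthy livers at -1.14 ± 0.18 (SE, adjusted p = 0.000493). Hacl1 shares 1540 exonic bases, 52.4% of its exons, with Gm49387 on the same strand, which had 0 counts, and 116 with Btd on the other strand, so its counts are uncertain to that extent.

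Of the oxidase and glyoxylate genes, the 3 tested fell in untreated HCC. Cat, catalase, was at 2370.4, 2786 and 2609.6 CPM in healthy livers, 1023, 845 and 1200.4 CPM in untreated HCC and 1786, 1882 and 1349 CPM in miR-22-treated HCC, without overlap between groups. It fell 2.53-fold at -1.34 ± 0.17 (SE, adjusted p = 1.99e-05) and rose 1.64-fold with miR-22 treatment at 0.71 ± 0.16 (SE, adjusted p = 0.00832). It was called below healthy livers after treatment at -0.63 ± 0.16 (SE, adjusted p = 0.00947), except without treated replicate 4, at -0.50 (adjusted p = 0.0365). Hao1, the glycolate oxidase that makes glyoxylate, was at 311, 317 and 297 CPM in healthy livers, 154, 134 and 176 CPM in untreated HCC and 238, 272 and 229 CPM in miR-22-treated HCC. It fell 1.99-fold at -0.9955 ± 0.11 (SE, adjusted p = 1.12e-05) and rose 1.59-fold at 0.67 ± 0.11 (SE, adjusted p = 0.00161), a rise that was under the fold threshold without untreated HCC replicate 3, at 0.57 (adjusted p = 0.00864). Agxt, the aminotransferase that removes glyoxylate, was at 349, 353 and 349.5 CPM in healthy livers, 152, 66.5 and 132 CPM in untreated HCC and 224, 186 and 121 CPM in miR-22-treated HCC, with healthy livers close together and a wide spread in both HCC groups. It fell 3.001-fold at -1.59 ± 0.27 (SE, adjusted p = 0.00024). Treated and untreated livers overlapped, at 0.60 ± 0.26 (SE, adjusted p = 0.118), and the difference was called only without treated replicate 4, at 0.81 (adjusted p = 0.0297), among the single livers left out. Treated livers were called below healthy livers at -0.99 ± 0.26 (SE, adjusted p = 0.0107).

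The genes of carnitine esters and coenzyme A turnover held both directions. Crat and Crot, which make carnitine esters so that shortened chains can leave the organelle, were not called in any comparison. Crat was at 44.9 ± 8.33 CPM (mean ± SD, n = 3) in healthy livers, 53.6 ± 6.09 CPM in untreated HCC and 49.95 ± 9.58 CPM in miR-22-treated HCC, with values of 0.26 (adjusted p = 0.169) in untreated HCC compared with healthy livers and -0.10 (adjusted p = 0.675) with miR-22 treatment, and it shares 461 exonic bases with Ptpa on the other strand. Crot was at 498 ± 19.4 CPM (mean ± SD, n = 3) in healthy livers, 578 ± 107 CPM in untreated HCC and 510.0 ± 32.6 CPM in miR-22-treated HCC, with values of 0.21 (adjusted p = 0.186) and -0.18 (adjusted p = 0.354), and all its groups overlapped.

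The Nudix hydrolases moved in opposite directions. Nudt7, which splits coenzyme A and its esters, was at 247, 278 and 321 CPM in healthy livers, 65.5, 62.6 and 88.4 CPM in untreated HCC and 214, 219 and 117 CPM in miR-22-treated HCC. It fell 3.91-fold in untreated HCC at -1.97 ± 0.22 (SE, adjusted p = 8.22e-06) and had the largest rise of the 38 genes with miR-22 treatment, 2.53-fold at 1.34 ± 0.21 (SE, adjusted p = 0.00118), and treated replicate 4 lay between the untreated livers and the other treated livers. Treated livers were called below healthy livers at -0.63 ± 0.21 (SE, adjusted p = 0.0347), a call lost without healthy replicate 2 at -0.65 (adjusted p = 0.0738), healthy replicate 3 at -0.54 (adjusted p = 0.116) or treated replicate 4 at -0.39 (adjusted p = 0.0818). Nudt12, a hydrolase of NADH, was at 76.9 ± 2.62 CPM (mean ± SD, n = 3) in healthy livers, 43.4 ± 5.34 CPM in untreated HCC and 67.9 ± 4.39 CPM in miR-22-treated HCC. It fell 1.77-fold at -0.82 ± 0.10 (SE, adjusted p = 1.56e-05) and rose 1.56-fold at 0.64 ± 0.10 (SE, adjusted p = 0.000938), or, without untreated HCC replicate 3, by 0.55 (adjusted p = 0.00495), under the fold threshold. Nudt19, another coenzyme A hydrolase, was at 35.6, 39.4 and 34.4 CPM in healthy livers, 83.5, 105 and 70.6 CPM in untreated HCC and 51.9, 40.6 and 54.2 CPM in miR-22-treated HCC. It rose 2.36-fold in untreated HCC at 1.24 ± 0.14 (SE, adjusted p = 1.23e-05) and fell 1.76-fold with miR-22 treatment at -0.82 ± 0.14 (SE, adjusted p = 0.00182), and each treated liver was still above each healthy liver, at 0.42 ± 0.14 (SE, adjusted p = 0.037). Its overlap with a non-coding gene on the other strand involves 14 counts of that gene in all livers together.

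Among the membrane protein genes, 4 of 5 fell in untreated HCC and 3 of 5 rose with miR-22 treatment, compared with 18.1% and 8.32% of all genes. Abcd2, a transporter of very long-chain fatty acyl-CoA, was at 171, 187 and 151 CPM in healthy livers, 36.1, 42.1 and 60.3 CPM in untreated HCC and 92.9, 89.3 and 60.5 CPM in miR-22-treated HCC. It fell 3.67-fold at -1.88 ± 0.19 (SE, adjusted p = 4.40e-06) and rose 1.75-fold at 0.81 ± 0.19 (SE, adjusted p = 0.00943), and treated livers were called below healthy livers at -1.07 ± 0.19 (SE, adjusted p = 0.000874). Abcd3, the abundant transporter of branched-chain acyl-CoA and bile acid precursors, was at 720.1, 811 and 715 CPM in healthy livers, 296, 272 and 338 CPM in untreated HCC and 449, 501 and 430.4 CPM in miR-22-treated HCC. Its groups stood apart, with a fall of 2.48-fold at -1.31 ± 0.12 (SE, adjusted p = 1.43e-06), and a rise of 1.52-fold at 0.61 ± 0.12 (SE, adjusted p = 0.00306). The remaining difference from healthy livers was -0.70 ± 0.12 (SE, adjusted p = 0.000552). The rise was under the fold threshold without untreated HCC replicate 3, at 0.54 (adjusted p = 0.0161), or treated replicate 3, at 0.54 (adjusted p = 0.0192).

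Pxmp2, a channel protein of the membrane, was at 125, 115 and 118 CPM in healthy livers, 24.3, 25.03 and 36.6 CPM in untreated HCC and 66.2, 65.1 and 50.2 CPM in miR-22-treated HCC. It fell 4.15-fold at -2.05 ± 0.15 (SE, adjusted p = 3.65e-07) and rose 2.10-fold at 1.07 ± 0.15 (SE, adjusted p = 0.000662), with treated livers 1.97-fold below healthy livers at -0.98 ± 0.15 (SE, adjusted p = 0.000314). Abcd4, named with this family although its product is known as a lysosomal cobalamin transporter, was at 17.2, 16.9 and 18.95 CPM in healthy livers, 11.8, 10.1 and 12.5 CPM in untreated HCC and 16.6, 16.1 and 17.5 CPM in miR-22-treated HCC. It fell 1.54-fold at -0.62 ± 0.12 (SE, adjusted p = 0.000573), a call lost without healthy replicate 3 at -0.58 (adjusted p = 0.00365) or untreated HCC replicate 3 at -0.54 (adjusted p = 0.00329), and was 0.54 ± 0.12 (SE, adjusted p = 0.00573) with miR-22 treatment, called without untreated HCC replicate 4 at 0.61 (adjusted p = 0.00598). Treated and healthy livers of Abcd4 overlapped, at -0.08 (adjusted p = 0.633). Pxmp4 was at 82.3 ± 6.36 CPM (mean ± SD, n = 3) in healthy livers, 62.8 ± 6.19 CPM in untreated HCC and 79.7 ± 11.6 CPM in miR-22-treated HCC and was not called in any comparison, with values of -0.39 (adjusted p = 0.0125) in untreated HCC compared with healthy livers and 0.34 (adjusted p = 0.0494) with treatment.

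**Figure D3:**
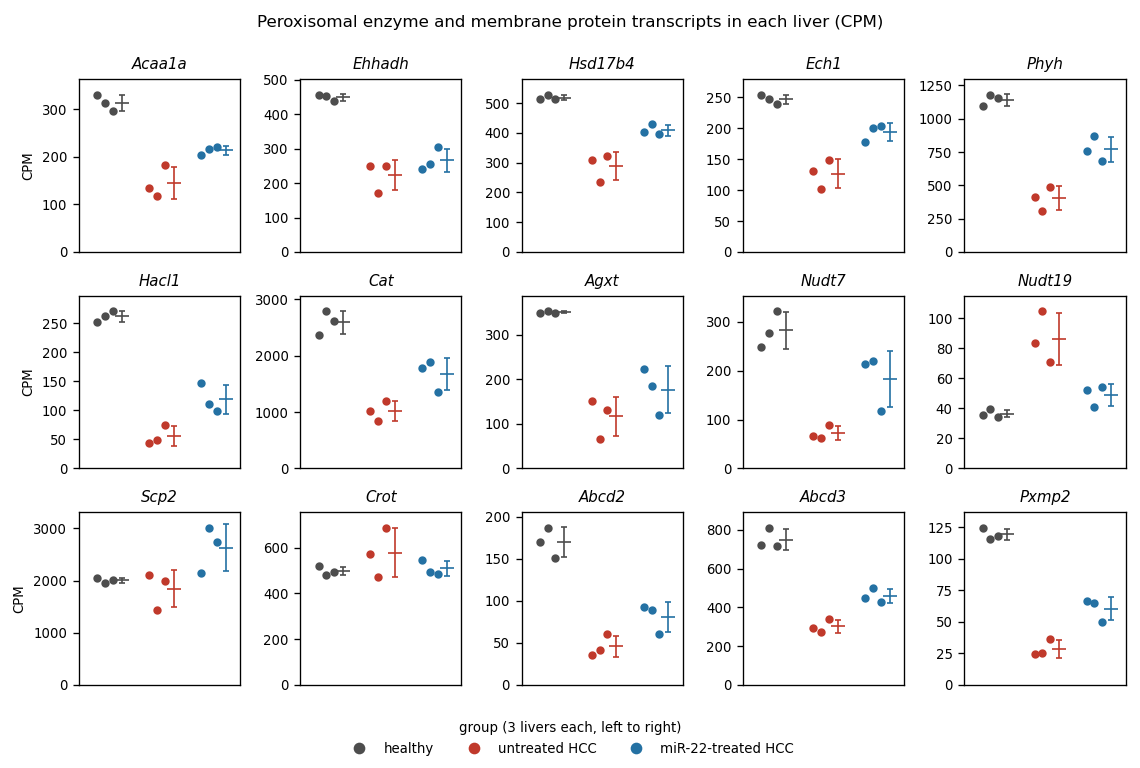
Level of 12 enzymes and 3 membrane protein genes (y axis, CPM after TMM normalization, from 0) in each liver, with mean and SD of 3 livers beside the points. Hacl1, Nudt7 and Pxmp2 fall furthest in untreated HCC, Nudt19 runs the other way, and Scp2 is highest in miR-22-treated HCC.

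Set side by side, the import machinery changed within a narrow range and the enzymes over a wide one. In untreated HCC compared with healthy livers, 7 of 13 Pex genes fell, with a median log2 fold change of -0.60 and a range of -1.23 to -0.43. Of 20 enzymes, 15 fell and 1 rose, with a median of -0.91 and a range of -2.23 to 1.24, and the 5 membrane protein genes had a median of -1.31. At an adjusted p under 0.05 alone, 12 of 13 Pex genes and 16 of 20 enzymes were lower, compared with 26.8% of all genes, so the smaller number of Pex calls came with smaller folds. With the fold threshold, 18.1% of all genes were called lower and 22.7% higher. With miR-22 treatment, 1 of 13 Pex genes and 8 of 20 enzymes rose, with medians of 0.25 and 0.54. The count of Pex genes was thus at the share of all genes called higher, 8.32%. At an adjusted p under 0.05 alone, which 13.6% of all genes passed as higher, the counts were 5 and 13. In treated compared with healthy livers, 2 of 13 Pex genes and 6 of 20 enzymes were called lower (7.05% of all genes), and the medians were -0.39 and -0.34. These counts and medians describe the lists, and no test was made of the difference between them.

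The order held in each untreated liver. Against the mean of healthy livers, the median over the 13 Pex genes was -0.58, -0.68 and -0.49 on the log2(CPM + 0.5) scale in the 3 untreated livers and -0.42, -0.28 and -0.48 in the treated livers. For the enzymes it was -0.88, -1.24 and -0.72 in untreated livers and -0.40, -0.28 and -0.41 in treated livers, and for the membrane protein genes -1.34, -1.45 and -1.15, and -0.74, -0.58 and -0.80. In every untreated liver the enzymes were further below healthy livers than the Pex genes, and in treated livers the medians of both were close to each other. The median over all genes tested was between 0 and 0.03 in each liver.

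**Figure D4:**
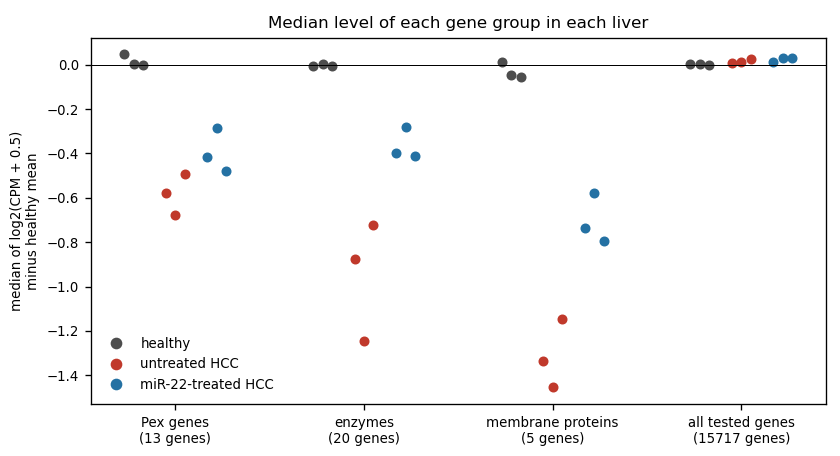
Median over the genes of each group of the log2(CPM + 0.5) level minus the healthy mean (y axis), with 1 point per liver. Pex genes and enzymes are apart in untreated HCC (-0.68 to -0.49 and -1.24 to -0.72) and overlap in miR-22-treated HCC (-0.48 to -0.28 and -0.41 to -0.28).

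Grouped by the letters of the targeting codons, 4 of the 5 tested enzymes not called lower in untreated HCC had the strict PTS1 consensus. The other, Acox3, had neither this consensus nor a PTS2 stretch. Of 8 enzymes with the consensus tested, 4 fell in untreated HCC (Ehhadh, Hsd17b4, Ech1 and Nudt7), 1 rose (Nudt19) and 3 were not called (Scp2, Crat and Crot), with a median log2 fold change of -0.48. The 3 enzymes with a PTS2 stretch all fell, with a median of -1.11. Of the 9 with neither, 8 fell, with a median of -0.995, and Acox3 was not called. Of all genes, 18.1% were called lower and 22.7% higher. With miR-22 treatment the medians were 0.38, 0.56 and 0.63 in the same order. The receptor of the PTS1 route, Pex5, was 1.46-fold lower in untreated HCC and that of the PTS2 route, Pex7, 1.80-fold lower, the latter alone past the fold threshold. The ends of the class with neither are variants of PTS1, so the classes do not separate the enzymes by receptor. They are small and differ in much else, and no test was made between them.

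Per kilobase of transcript, the levels of the 38 genes covered a wide range. In healthy livers Cat was the highest at 991 ± 79.8 CPM per kb, followed by Scp2 at 753 ± 18.4, Phyh at 713 ± 27.96 and Acaa1b at 548 ± 35.8 CPM per kb. Cat was more than its SD above Scp2, whereas Scp2 and Phyh lay close together. The highest peroxin, Pex19, ranked 18 of 39 at 61.5 ± 2.70 CPM per kb, close to Pex16 at 59.7 ± 4.70 CPM per kb, and Pex10 was the lowest detected gene at 3.65 ± 0.417 CPM per kb. In untreated HCC the order at the top changed, with Scp2 first at 692 ± 135 CPM per kb, Cat second at 391 ± 68.04 and Acaa1b and Phyh next at 302 ± 87.8 and 252 ± 56.6 CPM per kb, the last pair within their SD. Scp2 stayed first in miR-22-treated HCC at 986 ± 168 CPM per kb, ahead of Cat at 640.0 ± 109 CPM per kb. Crot moved from rank 10 in healthy livers to rank 5 in untreated HCC, and Nudt19 from rank 31 to rank 17.

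**Figure D5:**
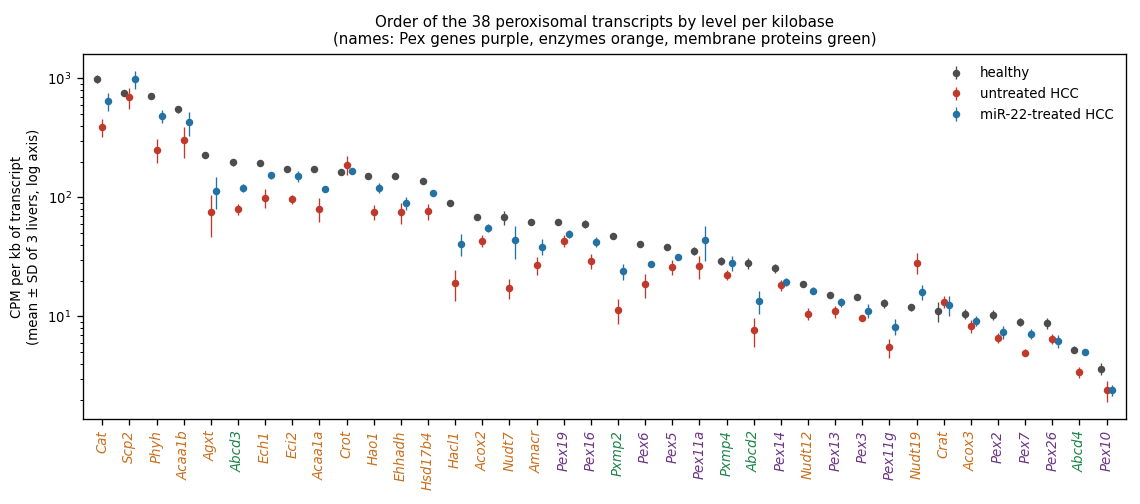
Mean level per kilobase of canonical transcript (y axis, CPM per kb on a log axis, with SD of 3 livers) of the 38 detected peroxisomal genes (x axis, ordered by the healthy mean) in the 3 groups. The 5 highest genes are enzymes, led by Cat at 991 CPM per kb in healthy livers. Abcd3, a membrane protein gene, is the sixth at 196 CPM per kb, and the Pex genes lie at 61.5 CPM per kb and below.

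Other peroxisomal genes, from lists written from general knowledge, were counted in the same fit. Their counts are read against all genes, of which 18.1% were called lower and 22.7% higher in untreated HCC compared with healthy livers, and 8.32% higher and 5.47% lower with miR-22 treatment. Of 35 further peroxisomal enzymes tested, 25 fell and 3 rose in untreated HCC, and 16 rose and 1 fell with miR-22 treatment. The largest falls were those of Acot3, an acyl-CoA thioesterase, at -4.76 ± 0.36 (SE, adjusted p = 3.64e-07), Hao2, a hydroxyacid oxidase, at -4.30 ± 0.55 (SE, adjusted p = 2.46e-05), and Eci3, an isomerase related to Eci2, at -2.61 ± 0.46 (SE, adjusted p = 0.000333). With miR-22 treatment the largest rises were those of Hao2 at 2.45 ± 0.52 (SE, adjusted p = 0.00548), Acot3 at 1.82 ± 0.33 (SE, adjusted p = 0.00232) and Paox, a polyamine oxidase, at 1.11 ± 0.18 (SE, adjusted p = 0.00125). Hao2 was uneven in the treated livers, at 88.3, 49.7 and 16.1 CPM, compared with 3.56, 9.90 and 14.4 CPM in untreated HCC and 159, 209 and 187 CPM in healthy livers. Acot3 lies in a family of similar genes, so its counts are uncertain. In treated compared with healthy livers, 14 of 35 were called lower and 1 higher, compared with 7.05% and 16.9% of all genes.

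Of 12 further membrane genes tested, 3 fell and 1 rose in untreated HCC and 2 rose with miR-22 treatment. With so few genes, the shares of falls and of rises with treatment were not far from those of all genes (18.1% and 8.32%). The falls were those of Mpv17l at -2.89 ± 0.23 (SE, adjusted p = 6.33e-07), Acsl1, an acyl-CoA synthetase, at -1.74 ± 0.15 (SE, adjusted p = 1.08e-06), and Acbd5, a tether to the endoplasmic reticulum, at -0.93 ± 0.13 (SE, adjusted p = 5.11e-05). Mpv17l and Acsl1 rose with treatment, at 1.38 ± 0.23 (SE, adjusted p = 0.00161) and 0.91 ± 0.15 (SE, adjusted p = 0.00126).

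Of 12 tested genes of PPARα and its partners, 6 fell and 2 rose in untreated HCC (18.1% and 22.7% of all genes), and 3 rose and 1 fell with miR-22 treatment (8.32% and 5.47% of all genes). Ppara was at 203, 220.5 and 174 CPM in healthy livers, 46.7, 46.7 and 65.03 CPM in untreated HCC and 135, 172 and 123 CPM in miR-22-treated HCC, without overlap between groups, and its log2 fold change was -1.92 ± 0.16 (SE, adjusted p = 8.29e-07) in untreated HCC compared with healthy livers and 1.44 ± 0.16 (SE, adjusted p = 0.000164) with treatment. The coactivators Ppargc1b and Ppargc1a rose with treatment at 1.60 ± 0.35 (SE, adjusted p = 0.00661) and 1.20 ± 0.23 (SE, adjusted p = 0.00328), and Pparg was higher in untreated HCC at 1.53 ± 0.13 (SE, adjusted p = 1.23e-06). Of 26 PPARα targets outside the peroxisome tested, 12 fell and 6 rose in untreated HCC, and 4 rose and 0 fell with miR-22 treatment. The share that rose in HCC was that of all genes, 22.7%. The risers in HCC were led by Cyp4a12a at 8.16 ± 0.49 (SE, adjusted p = 6.42e-08), Fgf21 at 3.55 ± 0.42 (SE, adjusted p = 1.44e-05) and Cidec, a lipid droplet protein, at 3.39 ± 0.38 (SE, adjusted p = 8.32e-06). Cyp4a12a has close paralogs, and its counts are uncertain. The promoter windows (around the start site, RefSeq, GRCm38.p6) of 30 matched peroxisomal genes held no direct repeat AGGNCANAGGNCA, the kind of element PPARα binds, on either strand. Of 32851 promoter windows, 0.381% held it, so finding none in 30 was likely whatever the genes. Sequence further from the start site was not searched, and binding of PPARα was not tested.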

How the data were processed

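RNA of whole livers from 9 mice was sequenced in non-directional libraries as pairs of 150 bases. The authors checked reads with FastQC 0.11.7, quantified them against GRCm39 with Salmon (version not given in the sources used here), summed them to genes with tximport and tested them with DESeq2 1.18. Gene counts were deposited by the authors as whole numbers without normalization, beside a signal table of the same counts divided by a size factor per library. Multiplied back, 100% of those signal values were whole (tolerance 0.05) and 100% equaled the counts, which were used for every result. With 16664659 to 23908392 counts per liver, genes with few counts, such as Pex10, are measured least precisely.

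The analysis used edgeR 4.0.16 in R 4.3.3 with TMM normalization, filterByExpr and a quasi-likelihood F test (two-sided, group as the only term, all livers fitted together). P-values were adjusted over 15717 genes by Benjamini-Hochberg, and calls needed an adjusted p under 0.05 with a fold beyond 1.5. Scripts were tested on simulated counts. The members and lists were chosen with earlier results of these data known. All 39 genes were named, and of the other lists up to 3 called genes per comparison with the largest change. Of the list symbols, 2 were not found, and some genes of these lists are not reported here. Standard errors are those of log2 fold changes. Replicates are separate livers, and livers of a group differed by 6.59 to 31.3 times the counting variance (chi-square per degree of freedom), so none was counted as a repeat. The alternatives tried are given in the closing section.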

Additional observations from a re-analysis of the deposited data

How the results depend on the processing

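Over the 38 genes and 3 comparisons, 2204 alternative values were computed, of which 2053 kept their direction and their side of the thresholds, 79 lost a call, 58 gained one and 14 changed sign. Of 27 calls in untreated HCC compared with healthy livers, 21 were kept in every setting (Abcd4, Acaa1b, Acox2, Pex2, Pex3 and Pex10 were lost in some), whereas 2 of 13 with miR-22 treatment (Nudt7 and Pxmp2) and 3 of 11 in treated compared with healthy livers (Abcd2, Hacl1 and Pxmp2) were. The count of genes higher with miR-22 treatment, 12 in the fit reported, was 23 with no fold threshold, 2 with a test against a fold of 1.5 (glmTreat) and 6 to 20 when 1 liver was left out, and the count of genes lower, 1, was 0 with glmTreat. In treated compared with healthy livers the count of genes lower, 11, was 26 with no fold threshold, 3 with glmTreat and 6 to 11 when 1 liver was left out, and the count of genes higher, 0, was 1 with no fold threshold. With the replicate number as a block (replicate block), fitted over the 6 HCC livers without the healthy livers, 5 were higher and 0 lower with miR-22 treatment and 958 of all genes were called. Those 6 livers without the block gave 11 higher, 1 lower and 2039 of all genes. For pairing, the deviations of each liver from its group mean (log2 scale) were correlated between untreated and treated livers, not the levels themselves. Livers with the same number correlated at -0.14, -0.19 and -0.28, and none correlated best with its own number. Deviations from a group mean cancel over its livers, so these correlations depend on each other. They gave no sign of pairing by number but cannot rule it out, and the labels do not pair the livers. Over all genes, glmTreat called 468 with miR-22 treatment and 2010 in treated compared with healthy livers, compared with 2167 and 3772, and no fold threshold gave 3777 and 5732. The sign changes were in values near 0 that were not called. With 1 liver left out, treated compared with healthy livers ranged from -0.033 to 0.065 in Crot, -0.113 to 0.059 in Pxmp4 and -0.009 to 0.302 in Crat. Treated compared with untreated HCC ranged from -0.135 to 0.04 in Pex26, -0.267 to 0.005 in Crat and -0.11 to 0.177 in Pex10, and untreated HCC compared with healthy livers from -0.228 to 0.033 in Scp2. Pex10, at -4e-04 in the fit reported, was also 0.014 with limma-trend (pseudocount 1) and 0.007 with the replicate block. The cause of these changes was not tested. Counts recovered from the signal values, added after the data were seen, gave the same numbers of calls. The medians of Pex genes and of enzymes kept their direction under every alternative listed here. Other scalings shifted the median of all genes by less than 0.1 on the log2 scale. Pex10 had the fewest counts of the 38 peroxisomal genes tested, and Dao, at 0 counts in every liver, gave no value.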
